A study of Homo sapiens with 4 samples.

Results

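The chromatin sites at which SS18::SSX or WDR5 was still detected after treatment of synovial sarcoma (SS) cells with MS67 were compared. Every peak of both MS67 lists was taken, 1175 for SS18::SSX and 14123 for WDR5, together 15298 of the 66044 peaks in the 4 lists of the series. A peak was called shared when it overlapped a peak of the other list by at least 1 bp, which gave 1050 SS18::SSX-only peaks, 125 shared SS18::SSX peaks, 133 shared WDR5 peaks, and 13990 WDR5-only peaks. The shared counts differ because a peak of one target can span several of the other.

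The cells were HSSY II, an SS line that carries the SS18::SSX1 fusion, treated for 4 days with 2.5 μM MS67 or with DMSO. MS67 is a PROTAC, a molecule that joins a WDR5 ligand to a ligand of a ubiquitin ligase so that WDR5 is degraded. CUT&RUN uses a nuclease tethered to the antibody to release the DNA around the bound protein. Each library had 1000000 HSSY II cells and 50000 murine NIH-3T3 spike-in cells. Per the study's methods, the spike-in cells carried a GFP-tagged histone. An antibody to GFP was added to the SS18::SSX antibody, whereas WDR5 was profiled with its own antibody alone. Each target and treatment had 1 library, so no difference below has a replicate check, no p-value was computed, and the 95% intervals (exact Clopper-Pearson) cover counting error only. The comparison asks which sites keep the fusion, which keep WDR5, and whether they are the same sites. A peak list cannot tell fewer occupied cells from less binding per cell.

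WDR5 is a scaffold subunit of the KMT2/MLL complexes, which methylate histone H3 at lysine 4, and it is best known at promoters of widely expressed genes. SS18::SSX replaces SS18 in SWI/SNF chromatin-remodeling complexes and brings them to sites that are otherwise repressed, among them CpG-rich regions of developmental genes marked by Polycomb. The fusion itself has no known sequence-specific DNA-binding domain.

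Examples of the sites are shown first, because the classes differed in base composition. Each line gives 201 bases of hg38, plus strand, around the summit (the position of most fragments) of a peak that also overlapped a DMSO peak of its own target. The peaks shown were among those of highest −log10 q in their class, with chromosomes 8 and 18 left out. Each had a summit sequence found once in the genome and no annotated exon in the window. Not every such peak is shown. MNX1, a homeobox gene that the study names as an SS oncogene, was added as a shared site. Capitals mark CCAAT (the NFY motif), GGGCGG (SP/KLF), CACGTG (E-box), and TGACTCA (AP-1), or their reverse complements.
ENSG00000167046 promoter (SS18::SSX-only), chr20:62643842-62644042: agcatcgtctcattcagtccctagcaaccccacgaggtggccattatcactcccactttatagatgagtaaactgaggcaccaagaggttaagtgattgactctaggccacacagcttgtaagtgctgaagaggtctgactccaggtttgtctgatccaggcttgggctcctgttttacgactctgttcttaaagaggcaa
SIM2 promoter (SS18::SSX-only), chr21:36698117-36698317: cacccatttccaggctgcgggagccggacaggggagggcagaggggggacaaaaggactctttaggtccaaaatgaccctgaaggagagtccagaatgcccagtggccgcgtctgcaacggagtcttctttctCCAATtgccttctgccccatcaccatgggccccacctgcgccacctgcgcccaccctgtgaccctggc
ENSG00000283360 intron (SS18::SSX-only), chr1:161459920-161460120: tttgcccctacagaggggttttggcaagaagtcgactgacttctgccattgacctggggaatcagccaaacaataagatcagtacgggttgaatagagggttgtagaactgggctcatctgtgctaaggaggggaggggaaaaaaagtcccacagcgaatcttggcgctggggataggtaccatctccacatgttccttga

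The SIM2 window held 7 CpG dinucleotides and 1 CCAAT match. The windows at ENSG00000167046 and ENSG00000283360 held 3 and 4 CpG, with a GC content of 48.3% and 50.2%, and no match to any of these motifs. SIM2 encodes a developmental basic helix-loop-helix transcription factor (TF), and the other loci are known here by their identifiers alone.
SHOX2 promoter (shared), chr3:158107142-158107342: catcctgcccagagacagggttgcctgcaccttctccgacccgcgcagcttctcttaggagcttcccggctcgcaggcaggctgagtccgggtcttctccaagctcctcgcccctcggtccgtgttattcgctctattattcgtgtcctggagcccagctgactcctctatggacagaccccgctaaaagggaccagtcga
MNX1 intron (shared), chr7:157008272-157008472: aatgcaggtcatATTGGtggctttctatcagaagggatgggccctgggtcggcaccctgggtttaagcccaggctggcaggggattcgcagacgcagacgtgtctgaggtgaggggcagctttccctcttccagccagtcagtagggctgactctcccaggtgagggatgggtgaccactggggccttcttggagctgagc

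The shared SHOX2 window, upstream of a homeobox gene of limb and heart development, held 13 CpG and no motif match. The shared MNX1 window lay in an intron 743 bp from the start site and held 4 CpG and 1 CCAAT match, read on the other strand.
RTF2 promoter (WDR5-only), chr20:56468301-56468501: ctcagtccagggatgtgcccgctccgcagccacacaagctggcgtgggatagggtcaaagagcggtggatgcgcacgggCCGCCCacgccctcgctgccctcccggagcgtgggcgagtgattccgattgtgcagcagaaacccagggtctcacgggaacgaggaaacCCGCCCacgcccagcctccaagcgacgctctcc
GATAD1 intergenic (WDR5-only), chr7:92424521-92424721: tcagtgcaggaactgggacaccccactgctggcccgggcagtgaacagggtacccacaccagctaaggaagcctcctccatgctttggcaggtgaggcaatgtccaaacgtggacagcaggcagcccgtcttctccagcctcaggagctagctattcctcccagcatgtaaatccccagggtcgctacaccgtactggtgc

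The window at the WDR5-only promoter of RTF2, a replication termination factor gene, was richer in CpG, with 19, and held 2 GGGCGG matches read on the other strand. The intergenic WDR5-only site near GATAD1 held 5 CpG and no match. A match describes letters in a window, and no match says nothing about a factor.

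The lists differed in what they could detect. Peak lists give no read totals, so the fragments at each summit and the local background were recovered from the fold enrichment and p-value. The genome-wide coverage was taken as the lowest local background among the called peaks of a list. It was 0.737 fragments per bp in the SS18::SSX library and 0.168 in the WDR5 library. The lowest summit that was called held 7 fragments for SS18::SSX and 3 for WDR5. The median summit held 30 and 8 fragments, and the median width was 315 and 226 bp. Fold and q were therefore compared within a list.

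Most of the remaining SS18::SSX and WDR5 peaks did not overlap. As a scale for the shares below, the MS67 peaks covered 0.138% of the genome for WDR5 and 0.0153% for SS18::SSX. The overlap expected by chance was not computed, so the shares are no measure of avoidance. Of the 1175 SS18::SSX peaks, 125 (10.6%, interval 8.93 to 12.5) overlapped a WDR5 peak, and of the 14123 WDR5 peaks, 133 (0.942%, interval 0.789 to 1.12) overlapped an SS18::SSX peak. With an overlap of at least 50% of a peak’s own length, the SS18::SSX share was 3.23%, and with −log10 q above 5 in both lists it was 1.64%. With DMSO, the shares were 33.7% (32.9 to 34.4) of 15141 SS18::SSX peaks and 13.9% (13.6 to 14.3) of 35605 WDR5 peaks. A shorter list leaves fewer peaks to meet. When the DMSO lists were reduced to their peaks of highest −log10 q, as many as the MS67 lists held, 24.3% (21.9 to 26.9) of the SS18::SSX peaks and 2.12% (1.89 to 2.38) of the WDR5 peaks were shared. The MS67 shares lay below these. The MS67 lists also came from libraries of other depth, and the part of depth in this difference was not tested.

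Beyond the overlapping peaks, a further 163 SS18::SSX peaks lay within 1 kb of a WDR5 peak, which brought the share to 24.5%, and 573 peaks (48.8%) lay within 10 kb. Another 340 peaks lay 10 to 50 kb away and 262 (22.3%) farther. The SS18::SSX-only peaks had a median gap of 15357.5 bp to the nearest WDR5 peak. The strength of a peak changed the overlap little: ranked by q and split into 4 equal sets, from the highest to the lowest, 12.6%, 11.6%, 8.50%, and 9.90% of SS18::SSX peaks were shared, and these intervals overlapped.

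The remaining WDR5 sites were promoter sites far more often than the remaining SS18::SSX sites. The promoter window, 1000 bp before and 100 bp after a GENCODE start site, took up 1.86% of the genome. Promoters held 5452 of the 13990 WDR5-only peaks (39.0%, interval 38.2 to 39.8) and 123 of the 1050 SS18::SSX-only peaks (11.7%, interval 9.83 to 13.8). In promoter share, the shared sites resembled SS18::SSX-only more than WDR5-only peaks. Promoters held 15.2% (9.41 to 22.7) of the shared SS18::SSX peaks and 17.3% (11.3 to 24.8) of the shared WDR5 peaks. Both intervals overlapped that of the SS18::SSX-only class, and neither reached the WDR5-only share. With DMSO, 27.4% of the shared SS18::SSX peaks, 14.5% of the SS18::SSX-only peaks, and 27.7% of the WDR5-only peaks were at promoters. In the DMSO lists reduced to the MS67 lengths, these shares were 18.2% (13.9 to 23.1), 8.44% (6.69 to 10.5), and 34.1% (33.3 to 34.9).

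Outside promoters, introns held 45.7% of the SS18::SSX-only peaks, 40.8% of the shared SS18::SSX peaks, and 36.1% of the WDR5-only peaks, against 53.9% of the genome. Intergenic sequence held 32%, 36.0%, and 13.6%, against 39.3% of the genome. Exons and UTRs outside promoters held 6.95%, 5.60%, and 9.20%, and 5′ UTRs alone held 2.52% of the WDR5-only peaks and 0.476% of the SS18::SSX-only peaks.

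**Figure D1:**
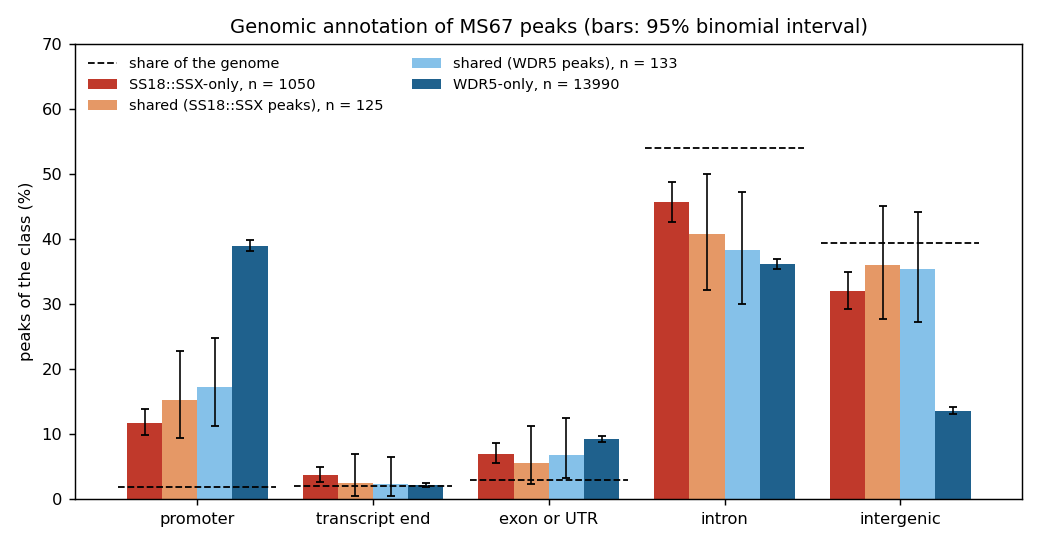
Share of the peaks of each class (y axis, percent) in 5 kinds of genomic sequence, for the 4 classes of MS67 peaks. Bars carry 95% binomial intervals and dashed lines give the share of the genome. WDR5-only peaks stand above the other classes at promoters (39.0% against 11.7% to 17.3%) and below them in intergenic sequence (13.6% against 32% to 36.0%).

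The distance to the nearest start site gave the same order. Its median was 557.5 bp for WDR5-only peaks, 6698.5 bp for SS18::SSX-only peaks, 4807 bp for shared SS18::SSX peaks, and 4638 bp for shared WDR5 peaks. The nearest gene coded for protein at 72.2% of WDR5-only peaks, 51.1% of SS18::SSX-only peaks, and 53.6% of shared SS18::SSX peaks, and was a long noncoding RNA (lncRNA) gene at the rest. Among WDR5 peaks, the promoter share fell with q, from 46.9% in the highest of 4 equal sets to 40.5%, 36.6%, and 31.0% in the others. The SS18::SSX peaks showed no such order, at 10.2%, 15.6%, 13.3%, and 9.22%.

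The base composition of the classes also differed, although the printed windows did not all follow the order of their classes. The median GC content was 59.0% at SS18::SSX-only peaks, 60.5% at shared SS18::SSX peaks, and 62.7% at WDR5-only peaks. The observed CpG count over that expected from base composition had a median of 0.311, 0.353, and 0.596. GGGCGG was found in the 300 bases around the summit at 216 SS18::SSX-only peaks (20.6%, interval 18.2 to 23.1), 35 shared SS18::SSX peaks (28.0%), and 5917 WDR5-only peaks (42.3%, interval 41.5 to 43.1). It was found in 44.95% of all 35116 RefSeq promoter windows of the same length. Among promoter peaks alone, 24.4% (17.1 to 33.0) of SS18::SSX-only and 59.3% (58.0 to 60.6) of WDR5-only windows held it, so the contrast was present at promoters too.

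The other motifs separated the classes less. CCAAT was found in 24.95% of SS18::SSX-only, 27.2% of shared SS18::SSX, and 23.1% of WDR5-only windows, and in 34.6% of RefSeq promoters. CACGTG was found in 5.14%, 4.00%, and 6.43%, against 7.26%, and TGACTCA in 4.67%, 4.80%, and 3.65%, against 4.95%. All 4 motifs were searched on both strands, and none contains another.

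The remaining SS18::SSX sites lay near chromosome ends. Within 5 Mb of an end of the chromosome sequence, 7.07% of the genome held 620 of the 1175 SS18::SSX peaks (52.8%, interval 49.9 to 55.7) and 1999 of the 14123 WDR5 peaks (14.2%, interval 13.6 to 14.7). The SS18::SSX-only peaks had 53.7% there, the shared SS18::SSX peaks 44.8%, and the WDR5-only peaks 13.9%. The density of SS18::SSX peaks was 4.08 per Mb in the first Mb, 5.65 in the next, and 0.157 beyond 40 Mb. For WDR5 it was 11.5, 10.98, and 3.87 per Mb.

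The same placement was present with DMSO. There, 35.6% of SS18::SSX peaks lay within 5 Mb of an end, and 52.2% (49.3 to 55.1) of the DMSO list reduced to the MS67 length. The MS67 peaks with an SS18::SSX peak in DMSO had 62.9% near ends, and those without had 25.3%. The SS18::SSX local background was also higher near ends, with a median of 13.2 fragments against 5.89 elsewhere, and the fold was lower, 2.78 against 3.51. For WDR5, the background was 0.922 near ends and 0.753 elsewhere. The part of the background in this placement was not tested.

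**Figure D2:**
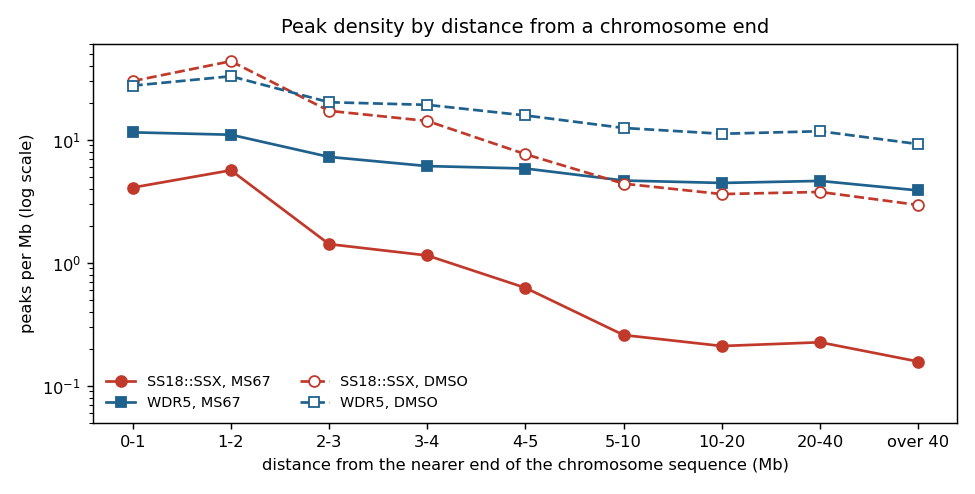
Peaks per Mb (y axis, log scale) by distance of the peak from the nearer end of its chromosome sequence (x axis, Mb), for both targets with MS67 (filled) and DMSO (open). The SS18::SSX MS67 density goes from 5.65 per Mb between 1 and 2 Mb to 0.157 beyond 40 Mb, and the WDR5 MS67 density from 10.98 to 3.87.

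Single megabases held many of these peaks. The densest SS18::SSX megabase, 63 to 64 Mb on chromosome 20, held 40 SS18::SSX peaks, 39 WDR5 peaks, and 6 shared SS18::SSX peaks. The next, 132 to 133 Mb on chromosome 10, held 32 SS18::SSX peaks, 24 WDR5 peaks, and 2 shared ones. The first megabase of chromosome 7 held 30 SS18::SSX and 19 WDR5 peaks with 2 shared. Together, the 10 densest megabases held 260 SS18::SSX peaks (22.1%). In the megabases named here, most SS18::SSX peaks overlapped no WDR5 peak, and the overlap expected by chance there was not computed. Per chromosome, the SS18::SSX density was highest on chromosome 20 (1.28 per Mb), then on 10 (1.02) and 7 (0.881), and X had 6 peaks (0.0387 per Mb). The WDR5 density was highest on chromosome 19, at 14.6 per Mb.

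Regions of raised background bear on the classes. In 115 of 2301 bins of 1 Mb, the 5% of highest local background in the WDR5 DMSO list (3.91% of the genome), lay 31.1% of the SS18::SSX-only peaks, 33.6% of the shared SS18::SSX peaks, and 8.52% of the WDR5-only peaks. Outside these bins, 10.3% of SS18::SSX peaks and 0.667% of WDR5 peaks were shared. The promoter share there was 14.0% for SS18::SSX-only, 19.3% for shared SS18::SSX, and 40.4% for WDR5-only peaks, and 41.9% of SS18::SSX peaks and 11.7% of WDR5 peaks still lay near ends. Inside the bins, the promoter shares were 6.73%, 7.14%, and 23.8%. Summit sequences that occur more than once in hg38 were at 1.62% of SS18::SSX-only and 1.67% of WDR5-only peaks.

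The DMSO peaks at these positions also differed by class. Of the SS18::SSX-only peaks, 495 (47.1%) overlapped a DMSO peak of SS18::SSX alone, 257 (24.5%) peaks of both targets, 54 (5.14%) a WDR5 peak alone, and 244 (23.2%) none. Thus 311 of 1050 (29.6%) had a WDR5 peak with DMSO and none with MS67. Of the 125 shared SS18::SSX peaks, 89 (71.2%, interval 62.4 to 78.9) overlapped DMSO peaks of both targets, and 3 overlapped none. Of the WDR5-only peaks, 7723 (55.2%) overlapped a DMSO peak of WDR5 alone, 1259 (8.999%) peaks of both, 325 (2.32%) an SS18::SSX peak alone, and 4683 (33.5%) none.

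The stronger peaks had a DMSO counterpart more often. In the highest of the 4 sets by q, 84.7% of SS18::SSX and 81.7% of WDR5 peaks overlapped a DMSO peak of their own target, and in the lowest 64.8% and 48.2%.

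**Figure D3:**
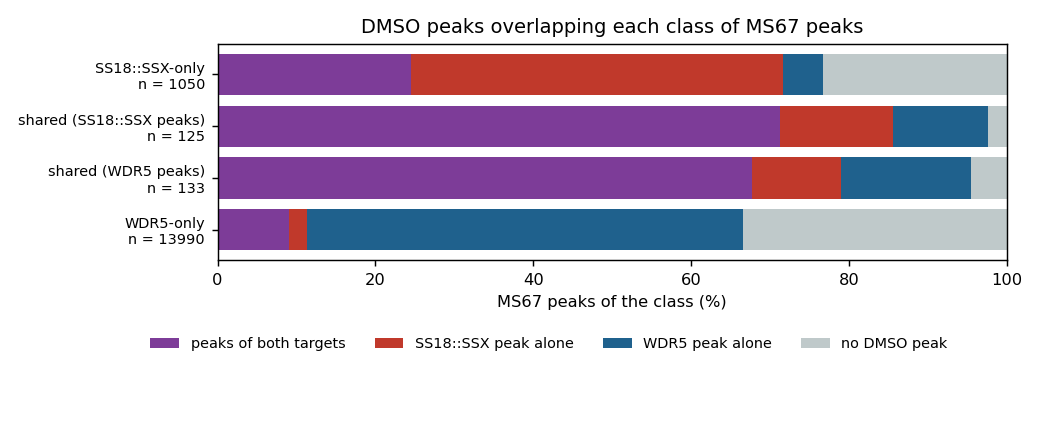
Share of each class of MS67 peaks (x axis, percent) that overlaps DMSO peaks of both targets, of 1 target, or of neither. Shared peaks overlap DMSO peaks of both targets (71.2% of the SS18::SSX peaks) more often than SS18::SSX-only (24.5%) or WDR5-only peaks (8.999%).

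The 134 overlapping pairs were compared peak by peak. The median overlap was 158.5 bp and the median distance between summits was 173.5 bp, and 48 pairs (35.8%) had summits within 100 bp. The SS18::SSX peak was the wider in 110 pairs. The fold was higher for SS18::SSX in 24 pairs, with medians of 3.55 for SS18::SSX and 4.41 for WDR5, although fold is not on 1 scale between the libraries. Across the pairs, Spearman’s rho was 0.343 for fold, 0.569 for summit fragments, and 0.682 for local background. These correlations are descriptions over sites of the same libraries, and the background ran together more closely than the enrichment did.

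Relative to the coverage of its library, the median local background was 12.6 times at SS18::SSX-only peaks and 8.70 times at shared SS18::SSX peaks. For WDR5 it was 8.89 times at shared peaks and 4.56 times at WDR5-only peaks. Shared WDR5 sites thus lay in regions of higher WDR5 background than WDR5-only sites.

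**Figure D4:**
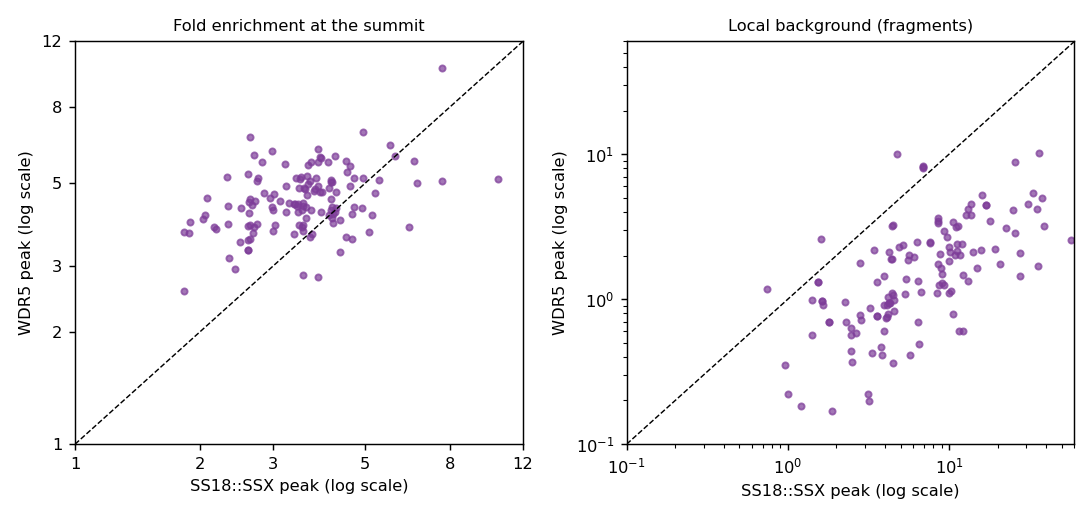
Fold enrichment (left) and local background in fragments (right) of the SS18::SSX peak (x axis, log scale) and the WDR5 peak (y axis, log scale) in each of the 134 overlapping pairs. The dashed line marks equal values. Fold is higher for SS18::SSX in 24 pairs, and rho is 0.343 for fold and 0.682 for background.

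The strongest SS18::SSX-only peaks were mostly far from promoters. The highest q (−log10 q 87.5, fold 14.5) was that of a 1090-bp peak at chr1:155438339-155439428, centred in a coding exon and nearest to the start of ASH1L-IT1, an RNA from within ASH1L, a histone methyltransferase gene. This peak had no DMSO peak of either target. The next, at chr17:24813000-24814592 (−log10 q 25.2), lay in intergenic sequence more than 2 Mb from the nearest start site, that of ENSG00000264262, and its summit sequence occurs 552 times in hg38, so its position is uncertain. The intronic peak at ENSG00000283360 had a fold of 15.3 and −log10 q of 24.8.

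A peak at chr9:113061126-113061619, 4614 bp from the start of ZFP37, a zinc finger gene, had a fold of 10.3 and lay 4273 bp from the nearest WDR5 peak. A peak nearest to RNF187, a ubiquitin ligase gene, lay 67276 bp from its start with a fold of 5.78. The other 3 of the 8 highest were nearest to ENSG00000281904, ENSG00000290386, and ENSG00000234210, at 39111, 2664, and 3456 bp. The summit sequence at ENSG00000290386 occurs 4 times in hg38. Of the 8, 6 overlapped an SS18::SSX peak with DMSO, and none a WDR5 peak.

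The strongest shared peaks overlapped DMSO peaks of both targets at all 8 positions ranked by SS18::SSX q. The highest was the peak at chr16:16365300-16365654, 13663 bp from NPIPA7, a member of a family of near-identical copies, with an SS18::SSX fold of 10.4. A peak near TPSAB1, a mast cell tryptase gene, had a fold of 6.66 at 6696 bp. The promoter of ENSG00000288930, which also lies within the promoter window of ZDHHC11B, a palmitoyltransferase gene, ranked high for both targets. There the SS18::SSX peak chr5:784879-785623 had a fold of 7.64 over 19 fragments, and the WDR5 peak chr5:784878-785097 a fold of 10.2 over 19 fragments. Their summits lay 52 bp apart.

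The remaining shared peaks in this ranking were nearest to ENSG00000285535, ENSG00000291066 (a summit sequence with 8 copies), ENSG00000279151, ENSG00000235840, and ENSG00000288893. Ranked by WDR5 q, the shared peaks further included 2 nearest to PARD3-DT. Others were 1 each nearest to TNK2 (a kinase gene), SLC9A3 (a sodium/proton exchanger gene), SLC26A5 (the gene of prestin), and TERLR1. Those of SLC9A3 and TERLR1 were intergenic, 31613 and 23868 bp from the start sites. The SLC26A5 peak lay 6 bp from the start site with a fold of 6.65. A lncRNA was the nearest gene of 6 of the 8 highest SS18::SSX-only peaks and 6 of the 8 highest shared SS18::SSX peaks.

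The strongest WDR5-only peaks were at promoters. Of the 8 highest, 6 were centred at a promoter, and all 8 overlapped a WDR5 peak with DMSO. The highest, at ROPN1L, a sperm flagellum gene, lay 8 bp from the start site with a fold of 12.3 and −log10 q of 19.5. AMACR, a racemase of branched-chain fatty acid breakdown, had a peak 9 bp from its start with a fold of 10.8. DUSP22, a phosphatase gene, had a 1943-bp peak with a fold of 7.31, and CREM, a cyclic AMP–responsive TF gene, a peak 25 bp from its start with a fold of 7.82. A promoter peak at ENSG00000230534 had a fold of 7.37. The intergenic peak near GATAD1 had the highest fold of the list, 14.4, and the other intergenic one was nearest to ENSG00000288893. The nearest SS18::SSX peak to the ROPN1L peak was 122828 bp away.

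The genes at these promoters were then compared. Of the 20033 protein-coding genes, 101 (0.504%) had an SS18::SSX peak centred at a promoter, 4522 (22.6%) a WDR5 peak, and 30 (0.15%) both, which is 29.7% of the SS18::SSX genes and 0.663% of the WDR5 genes. A shared SS18::SSX peak was centred at the promoter of 15 of the 101 genes. Of the 18866 lncRNA genes, 48 (0.254%) had an SS18::SSX promoter peak, 1374 (7.28%) a WDR5 peak, and 9 (0.0477%) both. By nearest start site, 454 protein-coding genes (2.27%) belonged to an SS18::SSX peak, 7560 (37.7%) to a WDR5 peak, and 250 (1.25%) to both. Among lncRNA genes, the counts were 391 (2.07%), 2966 (15.7%), and 234 (1.24%). The genes common to both targets were 55.1% of the 454 and 59.8% of the 391, beside the WDR5 shares of 37.7% and 15.7%. A gene can collect several peaks, so these shares cannot be set against the share of overlapping peaks.

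Of 1353 protein-coding genes with promoter peaks of both targets with DMSO, 690 had neither with MS67, 615 a WDR5 promoter peak alone, 29 an SS18::SSX peak alone, and 19 both. The WDR5 MS67 list from which these counts come is the longer, with 14123 peaks against 1175. Of the 101 SS18::SSX promoter genes, 65 had a WDR5 promoter peak with DMSO, and 38 of these had none with MS67. The same counts over all protein-coding genes are not given here, so these are no result about the SS18::SSX genes.

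Of the 8 genes that the study names for chromatin binding, only SIM2 had an SS18::SSX promoter peak with MS67, and none had a WDR5 promoter peak. Beside these stand 0.504% and 22.6% of all protein-coding genes, and a list of 8 genes is too short to set against these shares. With DMSO, 3 of the 8 had an SS18::SSX promoter peak and 3 a WDR5 promoter peak. Within 10 kb of SIM2 lay 1 SS18::SSX peak (fold 2.46, 84 fragments over a background of 33.6) and no WDR5 peak with MS67, against 8 and 4 with DMSO. MNX1 had 2 SS18::SSX and 4 WDR5 peaks with MS67, against 9 and 8. The MNX1 peaks in its intron overlapped, with an SS18::SSX fold of 2.16 over 68 fragments and a WDR5 fold of 3.81 over 20 fragments, and their summits were 19 bp apart. SOX8, a neural crest TF gene, had 2 SS18::SSX peaks (fold 2.43 and 2.73) and 1 WDR5 peak (fold 4.25), 9284 bp from the nearer SS18::SSX peak.

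Within the same 10 kb, NTSR1, the neurotensin receptor gene, had no SS18::SSX peak and 1 WDR5 peak of 3 fragments. FOXC1, a forkhead TF gene, and FZD10, a WNT receptor gene, had no peak of either target within 10 kb with MS67, and 1 of each with DMSO. The ribosomal protein gene RPL35 had 1 WDR5 peak, which was nearest to WDR38, and RPL7 had 1 SS18::SSX peak, which was nearest to RDH10. Expression was not measured in these libraries, so the SS identity of the cells could not be checked from marker levels. Of 9 SS marker genes, BCL2, MNX1, and SIM2 were nearest genes of an SS18::SSX peak, beside 2.27% of all protein-coding genes, and 3 were nearest genes of a WDR5 peak, beside 37.7%. Of 5 markers of other lineages, 0 were for either target, a list too short to set against these shares.

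Among the gene lists, the developmental TF genes held the highest count of nearest genes of SS18::SSX peaks, and the lists of 8 study genes and 9 SS markers, which share SIM2 and MNX1 with it, had higher shares. Of 159 such genes (SOX, PAX, LHX, NKX, FOX, and related families), 21 (13.2%) were the nearest gene of an SS18::SSX peak, beside 2.27% of all protein-coding genes, 50 (31.4%) of a WDR5 peak, beside 37.7%, and 8 (5.03%) of both, beside 1.25%. At promoters, SS18::SSX had peaks at 5 (3.14%, beside 0.504%) and WDR5 at 15 (9.43%, beside 22.6%). The 5 were SIM2, FOXI2 (a forkhead gene, fold 5.47), LHX3 (a pituitary and motor neuron LIM homeobox gene, 2.86), PAX5 (a B cell TF gene, 2.54 and 2.39 at 2 sites), and TBXT (the notochord TF brachyury, 3.01). No peak at these 5 overlapped a WDR5 peak, although the nearest WDR5 peak to a PAX5 promoter peak was 221 bp away. With DMSO, 93 of the 159 genes (58.5%) were the nearest gene of an SS18::SSX peak, and 33 (20.8%) had one at a promoter. The DMSO shares of all protein-coding genes are not given here.

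Away from promoters, NKX6-2, a neural homeobox gene, was nearest to 10 SS18::SSX peaks in the dense region of chromosome 10, with folds from 1.83 to 3.74. These 10 peaks lay 2458 to 121042 bp from its start site, all in bins of raised background. IRX4, a cardiac homeobox gene, and GATA5, an endoderm and heart TF gene, had 3 each, and PAX2, a kidney TF gene, had 3. The IRX4 and GATA5 peaks also lay in bins of raised background, and the PAX2 peaks did not. Of the 39 HOX cluster genes, which pattern the body axis, none had an SS18::SSX promoter peak (beside 0.504% of all protein-coding genes) and 1 had a WDR5 promoter peak (beside 22.6%), and HOXA3 and HOXA4 were nearest to an SS18::SSX peak (beside 2.27%).

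Genes of general cell functions were next. WDR5 promoter peaks were at 32 of 78 mitochondrial ribosomal protein genes (41.0%), 25 of 71 translation factor genes (35.2%), 14 of 40 proteasome genes (35.0%), 23 of 85 cytosolic ribosomal protein genes (27.1%), and 17 of 85 respiratory chain genes (20%), beside 22.6% of all protein-coding genes. SS18::SSX had 1 promoter peak among these lists, which lay in the promoter windows of MRPL36 and NDUFS6 (fold 3.66, 491 bp from the nearest WDR5 peak) and counts for both. That is 1.28% of the mitochondrial ribosomal protein genes and 1.18% of the respiratory chain genes, beside 0.504% of all protein-coding genes, and at 1 gene a list these counts do not differ visibly from that share. For WDR5, the cytosolic ribosomal protein and respiratory chain genes lay near the share of all genes.

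Among genes of chromatin regulators, WDR5 peaks were at the promoters of 7 of 16 KMT2 complex genes (43.8%), among them WDR5 itself (fold 4.64 over 7 fragments), 11 of 31 Polycomb genes (35.5%), and 6 of 28 SWI/SNF genes (21.4%), beside 22.6% of all protein-coding genes, so the SWI/SNF share lay near that of all genes. One of the last was SS18, a partner of the fusion (fold 4.97). Of 16 p53 pathway genes, 9 (56.3%) had a WDR5 promoter peak, beside the same 22.6%. With DMSO, the WDR5 promoter shares of these lists, in the same order, were 37.5%, 51.6%, 50%, and 75%. The WDR5 list with DMSO was longer, with 35605 peaks against 14123. The DMSO share of all protein-coding genes is not given here, so whether these values or their change with MS67 are particular to the lists cannot be judged. Not every MS67 peak here was a retained one. Those at WDR5, CXXC1, HCFC1, and KDM6A overlapped no WDR5 peak with DMSO, and neither did some in the other lists. The chromosome 19 zinc finger genes had WDR5 peaks at 47 of 249 promoters (18.9%), near the share of all protein-coding genes. The small nucleolar RNA host genes, drawn from protein-coding and lncRNA genes alike, had them at 7 of 28 (25%). The share was 22.6% of all protein-coding genes and 7.28% of all lncRNA genes. None of these lists held an SS18::SSX promoter peak, which at 0.504% of all genes is no result about lists of this size. The replication-dependent histone genes (69) and clustered protocadherin genes (53) had no promoter peak of either target. Of 293 genes with near-identical copies, also drawn from both kinds, 12 (4.10%) had a WDR5 promoter peak and none an SS18::SSX one. For WDR5 and SS18::SSX, the protein-coding shares were 22.6% and 0.504%, and the lncRNA shares 7.28% and 0.254%.

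**Figure D5:**
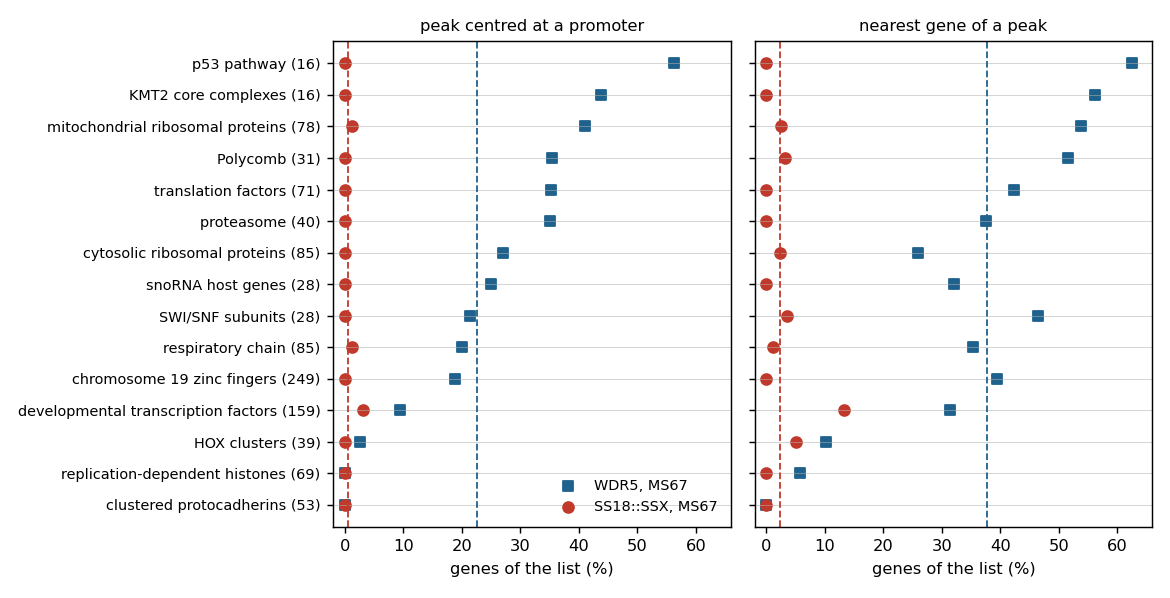
Share of the protein-coding or host genes of each list (x axis, percent, number of genes in parentheses) with an MS67 peak centred at a promoter (left) or as the nearest gene of a peak (right), for WDR5 (squares) and SS18::SSX (circles). Dashed lines mark all protein-coding genes, 22.6% and 0.504% at promoters and 37.7% and 2.27% by nearest gene. Developmental TF genes stand right of the SS18::SSX line (13.2% by nearest gene) and left of the WDR5 lines.

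A few other SS18::SSX promoters of high q were named after their values were seen, as examples and with no theme tested. KCNA7, a potassium channel gene, had a fold of 6.60, and HCN2, a pacemaker channel gene, 4.41. Neither peak overlapped a WDR5 peak, although the nearest one lay 226 bp from the HCN2 peak and 8022 bp from the KCNA7 peak. ACHE, the acetylcholinesterase gene, had a shared peak with an SS18::SSX fold of 4.95, and SHOX2 had a shared peak with 3.36 for SS18::SSX and 3.65 for WDR5. TPSB2, a mast cell tryptase gene, had a fold of 6.72, and its peak did not overlap a WDR5 peak.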

How the data were processed

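The data were 4 CUT&RUN peak lists, 1 for each target and treatment, per the labels. Per the study's methods, the libraries were run on a NextSeq 2000. Bowtie2 (v.2.4.4) placed the reads on hg38, Samtools (v.1.10) was used to drop nonprimary alignments, Picard (v.2.18.2) marked duplicates for removal, and MACS2 (v.2.2.6) was the peak caller. The submitters’ processing notes also list SAMtools 1.9, bedtools 2.28.0, and deepTools 3.3.0. The MACS2 options and control are not given in the sources used here. Each deposited peak has a fold enrichment (a ratio of the summit to its surrounding background) and the authors’ −log10 p-value and −log10 q-value.

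From these, whole-number fragments and the background were recovered for 100% of peaks within 0.001 in −log10 p. Peaks were annotated by their centres with basic transcripts of GENCODE 44 (84607 start sites), in HOMER’s order of classes. Scripts (Python 3.11.15, numpy 2.4.6, scipy 1.17.1, pandas 2.3.3, numba 0.67.0, matplotlib 3.10.9) were tested on simulated data. Promoter windows of RefSeq were those of GRCh38.p14. Genes were named by a fixed rule: the nearest genes of the 8 highest peaks in each of 4 rankings, the genes the study names for binding, and list members with an SS18::SSX promoter peak. Members of the chromatin regulator lists and genes with many nearby peaks, and the genes of printed sequences, were named after their values were seen. The members and the 19 lists were chosen with earlier results of these data known. Alternatives were other overlaps, stricter or merged peaks, a shorter WDR5 list, other promoters, and regions left out. The spike-in–normalized signal was not analysed here. A few items that these rules cover are not reported here.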

Additional observations from a re-analysis of the deposited data

How the results depend on the processing

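The order of the promoter shares, lower for SS18::SSX-only than for WDR5-only peaks, was kept under all 12 alternatives run, and 26 of 54 alternative values stayed within the interval of the reported value. The cause of the other 28 shifts was not tested. The overlap moved most. The share of SS18::SSX peaks that were shared was 3.23% with 50% of a peak’s own length, 24.5% within 1 kb, 1.64% with −log10 q above 5, 1.00% with −log10 q above 3 and fold above 3 (SS18::SSX) or 6 (WDR5), and 0.426% with the WDR5 list reduced to 1175 peaks. For WDR5 peaks in the same order, it was 0.588%, 2.17%, 0.160%, 0.152%, and 0.511%, and it was 0.667% without the bins of raised background and 0.602% without chromosome ends. The values with the q limit, the fold limits, and the shorter WDR5 list rest on 4 to 6 shared peaks each.

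The promoter share of SS18::SSX-only peaks was 8.75% with −log10 q above 5, 16.9% with the fold limits, 14.0% without raised bins, 20% with promoters of 1000 bp on both sides, and 8.10% with protein-coding start sites. For shared SS18::SSX peaks, it was 25% and 50% (of 4 peaks each) with the q and fold limits, and 29.6% with the wider promoters. For WDR5-only peaks, it was 47.5% and 48.9% with the q and fold limits, 37.4% with merged peaks, 48.9% with the shorter list, 40.4% without raised bins, 61.2% and 32.1% with the wider and the protein-coding promoters, and 40.1% without chromosome ends. The alternatives without chromosome ends and without repeated summit sequences were chosen after seeing the data. No paired analysis was possible because each target and treatment had 1 library. The lowest called summit held 3 fragments in the WDR5 list and 7 in the SS18::SSX list, and the part of depth in these values was not tested.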
